A study of Mus musculus with 9 samples.

Results

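The piRNA pathway genes examined here are 10 genes of the germ line: Ddx4, Mael, Asz1, Tdrd1, Tdrd9, Tdrd12, Rnf17, Piwil2, Mov10l1 and Fkbp6. They were chosen by name, and CpG methylation was read within 1 kb of either end of each gene. A call here is 1 read at 1 CpG, so that a read over several CpGs gives several calls, which are not independent. An end was used where every library had at least 10 calls there, or where at least 5 CpGs were read in every library. Of the 10 genes, 6 had such an end, among 19209 genes of the RefSeq gene table that had one. The used end was the annotated start for 5 of them (Ddx4, Mael, Asz1, Tdrd1 and Tdrd9). For Rnf17 it was the end at the lower coordinate, whose strand the tables used here do not give. No other gene of the RefSeq table overlapped any of these 6 windows.

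The samples were 9 libraries of reduced representation bisulfite sequencing, which reads methylation at single CpGs in the CpG-rich part of the genome. All came from Abl.1, a clonal line of immortalised B cells, so every group shares 1 clone. The line is female and its strain background is the F1 cross 129S1/SvImJ x CAST/EiJ. Cells were collected on day 2 after growth with 1% DMSO (2 libraries), 0.2 µM 5-aza-dC (2 libraries), 2 µM (3 libraries) or 10 µM (2 libraries). The drug was dissolved in DMSO, and the final DMSO share of the treated cultures is not stated. 5-aza-dC is 5-aza-2'-deoxycytidine, a nucleoside that is built into new DNA and binds DNA methyltransferases covalently, so that methylation is lost as cells divide. Dead cells were removed on a density gradient before DNA was made, so the levels describe surviving cells. Replicates are separate library preparations by their labels, and nothing says that they came from separate cultures. P-values therefore rest on spread between libraries, which may be technical. In the main fit the spread of a window is pulled towards that of other windows (prior df 16.9). A p-value there does not measure the spread of that window alone.

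Libraries held between 8590883 and 16495535 calls at CpGs, with the fewest in DMSO replicate 2 and 10 µM replicate 2. The B lineage label was read against methylation at marker genes. The 4 B cell genes reported, Cd79b, Ebf1, Vpreb1 and Igll1, had mean levels between 0% and 0.658% in DMSO in every used window. Of 6 T cell genes 3 had a used window, at 84.3% ± 0.822 for the start of Bcl11b, 100% for the far end of Lck and 0.540% ± 0.198 for an end of Cd4 without strand (SD, n = 2). Cd4 was thus as low as the B cell genes. Of 4 genes listed for other blood cells, Spi1 stood at 90.5% ± 4.79 and Csf1r at 52.6% ± 11.1, both at ends without strand. The opposite end of Spi1 did not meet the rule, with 3 calls in each DMSO library and a level of 0% in both. Gata1 and Mpo had no used window. Methylation is not expression, and RNA was not analysed here.

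piRNAs are short RNAs of the germ line. PIWI proteins carry them to transposon transcripts, which are cut, and to transposon DNA, which becomes methylated. Much of the pathway sits in granules beside germ cell mitochondria, where tudor proteins bind methylated arginines of the PIWI proteins and hold the machinery together. In most somatic cells these genes are off, and several of them carry CpG-rich promoters that are methylated there. Factors that bind the E-box CACGTG and motifs such as TCCCGCC belong to a variant Polycomb complex known to mark germ line genes for silencing.

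The promoters of Ddx4, Mael and Asz1 are shown, in which 10 to 24 CpGs were read in every library. In that of Fkbp6, which is not shown, 2 CpGs were. Each is 300 bases of RefSeq sequence (build GRCm38.p6, the mm10 assembly named in the submitters' processing notes), 5' to 3' on the gene's strand. It runs from 250 bases before the start in the RefSeq promoter table to 50 after it. For Ddx4 that start lies 323 bp inside the gene from the gene-table start, on which its window is centred. Capitals mark the CpGs that were read in all 9 libraries.
Ddx4 promoter, chr13:112652261-112652560, minus strand: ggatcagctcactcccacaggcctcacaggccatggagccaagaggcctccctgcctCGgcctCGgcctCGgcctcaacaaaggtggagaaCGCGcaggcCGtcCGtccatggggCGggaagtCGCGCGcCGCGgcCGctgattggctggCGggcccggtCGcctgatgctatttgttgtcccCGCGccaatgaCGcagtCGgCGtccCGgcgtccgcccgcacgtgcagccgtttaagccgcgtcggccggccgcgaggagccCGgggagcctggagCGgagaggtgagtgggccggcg
Mael promoter, chr1:166238695-166238994, minus strand: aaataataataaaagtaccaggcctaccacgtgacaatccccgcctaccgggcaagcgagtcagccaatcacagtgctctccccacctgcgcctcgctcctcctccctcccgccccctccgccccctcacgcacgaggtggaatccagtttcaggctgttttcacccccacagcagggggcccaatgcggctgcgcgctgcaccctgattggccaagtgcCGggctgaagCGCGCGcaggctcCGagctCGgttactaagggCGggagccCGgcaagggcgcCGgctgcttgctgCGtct
Asz1 promoter, chr6:18109012-18109311, minus strand: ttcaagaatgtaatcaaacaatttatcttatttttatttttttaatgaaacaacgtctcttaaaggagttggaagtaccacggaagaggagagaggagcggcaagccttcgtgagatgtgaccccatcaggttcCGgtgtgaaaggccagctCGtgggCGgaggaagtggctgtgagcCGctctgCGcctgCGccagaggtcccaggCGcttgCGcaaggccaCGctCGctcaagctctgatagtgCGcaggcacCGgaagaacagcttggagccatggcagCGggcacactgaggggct

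The Ddx4 promoter holds 38 CpGs, 24 of which were read in every library. That of Mael holds 24, with 10 read in every library, and that of Asz1 holds 17, with 13. Over all 32851 promoters of the RefSeq table the median was 7 CpGs, with quartiles of 3 and 20. Of the 10 genes, 8 had a promoter in the table, with 9 (Tdrd12) to 38 CpGs. Rnf17 and Piwil2 had no entry.

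The 6-base E-box CACGTG, which reads the same on both strands and contains a CpG, was found in 6 of these 8 promoters, at 8 places. It stood in 7.15% of all promoters of this length. Fkbp6 and Tdrd9 each held 2 copies, and 0.594% of all promoters held 2 or more. The stretches around the 8 copies are shown to let the flanks be compared, with the E-box in capitals.
Mael E-box, chr1:166238950-166238979, minus strand: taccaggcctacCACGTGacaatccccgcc
Ddx4 E-box, chr13:112652322-112652351, minus strand: ggcgtccgcccgCACGTGcagccgtttaag
Tdrd1 E-box, chr19:56826186-56826215, plus strand: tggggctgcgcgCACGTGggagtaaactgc
Tdrd9 E-box, chr12:111971382-111971411, plus strand: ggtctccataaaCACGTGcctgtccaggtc
Tdrd9 E-box, chr12:111971452-111971481, plus strand: gcacgaggctccCACGTGcatgcagggcct
Mov10l1 E-box, chr15:88982744-88982765, plus strand: ccttCACGTGctaaccgccaac
Fkbp6 E-box, chr5:135350128-135350157, minus strand: tgcgcctgccatCACGTGtgcagcgcgtgc
Fkbp6 E-box, chr5:135350064-135350093, minus strand: gcgtctatcgatCACGTGccgtttctctcg

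The flanks differed between genes, and Asz1 and Tdrd12 held no copy in the window. TCCCGCC, searched on both strands, stood in 2 of the 8 promoters (Mael at 2 places, Ddx4 at 1) against 11.3% of all promoters. TCCCGCG stood in none of the 8 and in 5.00% of all. CCAAT, also searched on both strands, stood in 4 of the 8, at 9 places, and in 37.4% of all promoters. The searched motifs did not overlap each other in these promoters. A match describes the letters only.

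In DMSO the 6 windows were methylated at 80.5% to 97.6%. The means of all 6 were lower than in DMSO at every dose. Changes ran from -22.2 to -56.7 percentage points at 0.2 µM 5-aza-dC. They ran from -29.1 to -47.7 at 2 µM and from -9.57 to -23.1 at 10 µM. A window is said here to fall where it was lower at an adjusted p under 0.05 in the fit described below. All 6 fell at 0.2 µM, 5 at 2 µM and 2 at 10 µM, where 40.4%, 29.6% and 6.31% of all gene-end windows fell. By group mean Ddx4, Mael and Tdrd1 were lowest at 2 µM, and Asz1, Tdrd9 and Rnf17 at 0.2 µM. Of these 6 differences between 0.2 and 2 µM, that of Ddx4 passed the test and the other 5 did not. Among all 12756 start windows tested the median level in DMSO was 1.30%, and 1398 start windows lay at 80% or above with the DMSO libraries pooled. Ddx4, Mael, Asz1 and Tdrd1 are in that set, and Tdrd9, at 73.2% when pooled, is not. The Rnf17 window, an end without strand, is not in it either.

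Ddx4 encodes the germ cell RNA helicase known as mouse vasa homolog, which marks germ cells and sits in their granules. Its window (gene end at chromosome 13, position 112652633) held 53 CpGs and 103 to 300 calls per library. The share of calls methylated, library by library, was 97.2% and 98.1% with DMSO, 76.2% and 74.6% with 0.2 µM, 36.5%, 63.7% and 49.7% with 2 µM, and 78.9% and 75.9% with 10 µM. DMSO was the highest group, 2 µM the lowest, and 0.2 µM and 10 µM overlapped between them. The means were 97.6% ± 0.591 (SD, n = 2), 75.4% ± 1.15 (SD, n = 2), 49.9% ± 13.6 (SD, n = 3) and 77.4% ± 2.14 (SD, n = 2). The 3 libraries at 2 µM spread more widely than those of the other groups, and the lowest to highest range held no library of another group.

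Mael encodes maelstrom, a granule protein needed to silence transposons in the male germ line. Its window (chromosome 1, position 166238744) held 53 CpGs and 67 to 246 calls per library. Library levels were 93.2% and 92.5% with DMSO, 72.0% and 64.5% with 0.2 µM, 54.3%, 41.7% and 53.3% with 2 µM, and 67.3% and 90.3% with 10 µM. At 10 µM replicate 1 lay within the range of 0.2 µM, and replicate 2 lay just under DMSO. The means were 92.9% ± 0.456, 68.3% ± 5.31, 49.7% ± 7.0 and 78.8% ± 16.3 (SD, n = 2, 2, 3 and 2).

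Asz1 encodes an ankyrin and SAM domain protein that holds the granules to mitochondria. Its window (chromosome 6, position 18109061) held 24 CpGs and 40 to 185 calls per library. Library levels were 86.6% and 82.5% with DMSO, 52.0% and 34.97% with 0.2 µM, 34.1%, 53.2% and 63.6% with 2 µM, and 63.4% and 62.9% with 10 µM. All 7 treated libraries lay below both DMSO libraries, and the libraries at 2 µM reached from below those at 0.2 µM to just above those at 10 µM. The means were 84.6% ± 2.92, 43.5% ± 12.04, 50.3% ± 15.0 and 63.1% ± 0.327 (SD, n = 2, 2, 3 and 2).

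Tdrd1, a scaffold with several tudor domains that binds PIWI proteins, had a window (chromosome 19, position 56826171) with 37 CpGs and 132 to 276 calls per library. Library levels were 86.4% and 88.0% with DMSO, 56.2% and 58.0% with 0.2 µM, 52.9%, 41.3% and 39.2% with 2 µM, and 63.0% and 65.1% with 10 µM. No 2 of the 4 groups overlapped, and their order from high to low was DMSO, 10 µM, 0.2 µM and 2 µM. The means were 87.2% ± 1.16, 57.1% ± 1.32, 44.5% ± 7.37 and 64.1% ± 1.45 (SD, n = 2, 2, 3 and 2).

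Tdrd9 encodes a protein with a tudor domain and a helicase domain. Its window (chromosome 12, position 111971488) was the thinnest of the 6, with 13 CpGs, 5 of them read in every library, and 11 to 72 calls. Those 5 lie inside the gene, 195 to 277 bp after the promoter table's start. No CpG of its promoter was read in every library. Library levels were 70.0% and 90.9% with DMSO, 29.2% and 18.2% with 0.2 µM, 63.9%, 32.7% and 57.6% with 2 µM, and 86.2% and 55.6% with 10 µM. The 0.2 µM libraries were the lowest, and 10 µM overlapped both DMSO and 2 µM. DMSO replicate 2 rests on 11 calls and 10 µM replicate 2 on 18, over neighbouring CpGs that can share reads, so the number of reads may be lower. The means were 80.5% ± 14.8, 23.7% ± 7.81, 51.4% ± 16.5 and 70.9% ± 21.7 (SD, n = 2, 2, 3 and 2).

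Rnf17 encodes a RING and tudor domain protein that restrains PIWI activity in male germ cells. Its used end (chromosome 14, position 56402650) held 24 CpGs and 53 to 204 calls per library. Library levels were 94.1% and 92.5% with DMSO, 56.0% and 44.1% with 0.2 µM, 48.4%, 54.9% and 51.0% with 2 µM, and 71.7% and 75% with 10 µM. Libraries at 2 µM lay inside the range of those at 0.2 µM, and libraries at 10 µM lay between these and DMSO without overlap. The means were 93.3% ± 1.18, 50.0% ± 8.42, 51.4% ± 3.30 and 73.4% ± 2.32 (SD, n = 2, 2, 3 and 2).

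Within DMSO the order of the levels was Ddx4, Rnf17, Mael, Tdrd1, Asz1 and Tdrd9. Ddx4 lay above the libraries of all the other 5. The libraries of Rnf17 overlapped those of Mael, and those of Tdrd1 overlapped those of Asz1. The libraries of Tdrd9, at 70.0% and 90.9%, lay on either side of those of Tdrd1 and Asz1.

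The 4 remaining genes did not meet the read rule. Fkbp6, a chaperone partner of the immunophilin family that acts in piRNA amplification, came closest. At its gene-table start DMSO replicate 2 had 9 calls and the other libraries 21 to 106, and Tdrd9 with 11 calls was the window just inside the rule. Library levels there were 78.8% and 55.6% with DMSO, 25% and 10.8% with 0.2 µM, 75%, 63.2% and 50.9% with 2 µM, and 42.3% and 38.1% with 10 µM. Mov10l1, a helicase that binds piRNA precursors, had 2 to 33 calls per library at its start. Tdrd12, a tudor protein with a helicase domain, had 0 to 7 calls at its start. Piwil2, a PIWI protein of fetal and adult male germ cells, had no CpG in any library at either end. CpGs were also read at the other ends of Ddx4, Tdrd9, Mov10l1, Fkbp6 and Rnf17, but none of these ends met the rule.

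The promoter table places the start of Fkbp6 1765 bp from the gene-table end, and a window there was added after the data were seen. It held 25 CpGs and 45 to 150 calls per library. Library levels were 94.1% and 93.3% with DMSO, 37.3% and 40.7% with 0.2 µM, 91.0%, 26.5% and 48.9% with 2 µM, and 77.6% and 98.0% with 10 µM. Both 0.2 µM libraries lay far below DMSO, the 2 µM libraries spread from near DMSO to below 0.2 µM, and 10 µM overlapped DMSO. The SD at 2 µM was 32.8 points (n = 3). This window was fitted only with windows at the promoter table's starts, and no other alternative was run on it. In that fit Fkbp6 changed by -54.7 points at 0.2 µM (adjusted p = 0.0023) and by -38.2 points at 2 µM (adjusted p = 0.016). At 10 µM its change was -5.93 points (adjusted p = 1.00), and it lay 48.8 points higher at 10 µM than at 0.2 µM (adjusted p = 0.018). The differences from 0.2 to 2 µM (16.5 points, adjusted p = 0.82) and from 2 to 10 µM (32.3 points, adjusted p = 0.14) did not pass.

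**Figure D1:**
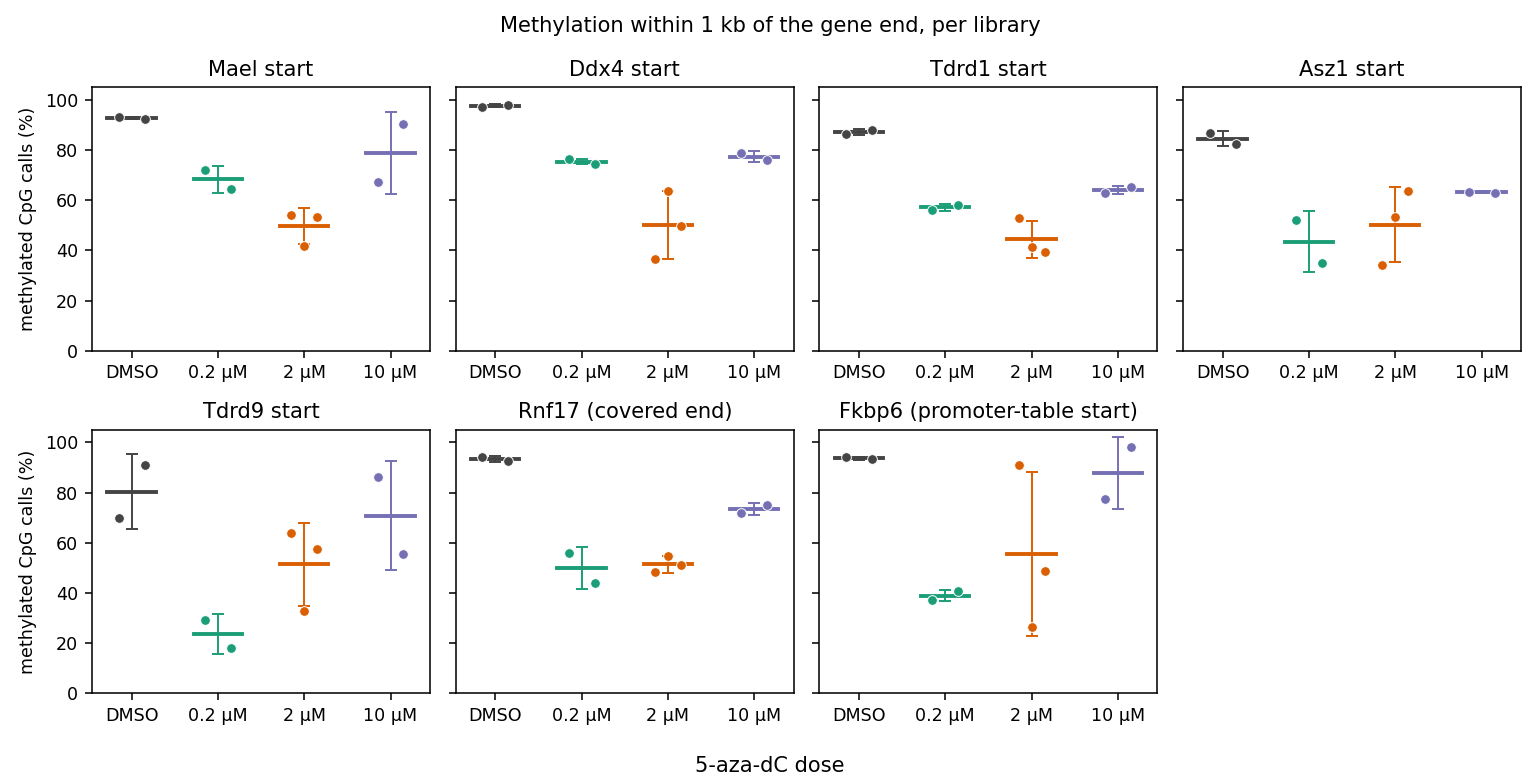
Share of methylated calls (y axis, percent) in each library (points) of the 4 groups (x axis, 5-aza-dC dose), 1 panel per gene (Fkbp6 at its promoter-table start), with group means (wide bars) and SD (whiskers). The Ddx4 libraries at 2 µM lie between 36.5% and 63.7%, and the Tdrd9 libraries at 0.2 µM at 29.2% and 18.2%.

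The comparison of 0.2 µM with DMSO asks how much methylation the lowest dose removed. In a binomial quasi-likelihood fit over all 23174 gene-end windows, with Benjamini-Hochberg adjustment over all of them and a threshold of 0.05, all 6 windows fell. By this call 40.4% of all windows fell and 0.0777% rose, and 97.7% fell of the 1398 start windows at 80% or above in pooled DMSO. The change was -56.7 points for Tdrd9 (adjusted p = 0.0021), -43.3 points for Rnf17 (adjusted p = 0.00019) and -41.1 points for Asz1 (adjusted p = 0.00062). The windows with 37 or 53 CpGs had the smaller changes, and the same order was seen beyond these genes down to 10 CpGs. Over the start windows at 80% or above, the median change was -26.3 points in those with 35 or more CpGs. It was -49.7 points in those with 20 to 34 and -59.5 points in those with 10 to 19. In those with fewer than 10 it was -57.4 points. Tdrd1 changed by -30.1 points (adjusted p = 0.00030), Mael by -24.6 points (adjusted p = 0.0021) and Ddx4 by -22.2 points (adjusted p = 0.00075). The median change of the 6 was -35.6 points. Over the start windows at 80% or above, which hold neither Tdrd9 nor Rnf17, it was -46.4 points. With limma on the levels, adjusted p was 0.059 for Mael and 0.083 for Ddx4, and with unweighted means over CpGs it was 0.084 and 0.34. In a window of 250 bp either side of its gene-table start, which leaves out part of its covered CpGs, that of Ddx4 was 0.059.

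At 2 µM 5 of the 6 windows fell against the same 2 DMSO libraries, where 29.6% of all windows fell and 0.186% rose, and 92.7% of the start windows at 80% or above fell. Ddx4 changed by -47.7 points (adjusted p = 2.5e-06), Mael by -43.1 points (adjusted p = 3.8e-05) and Tdrd1 by -42.7 points (adjusted p = 1.1e-05). Rnf17 changed by -41.9 points (adjusted p = 0.00021) and Asz1 by -34.3 points (adjusted p = 0.0021). Tdrd9 did not pass, at -29.1 points (adjusted p = 0.16). The median change of the 6 was -42.3 points. Over the start windows at 80% or above, which hold neither Tdrd9 nor Rnf17, it was -36.8 points. Without DMSO replicate 1, the adjusted p of Asz1 was 0.077.

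At 10 µM 2 of the 6 windows fell against the same DMSO libraries, where 6.31% of all windows fell and 0.203% rose, and 34.8% of the start windows at 80% or above fell. Tdrd1 changed by -23.1 points (adjusted p = 0.017) and Ddx4 by -20.3 points (adjusted p = 0.011). The other 4 did not pass, with changes of -21.4 points for Asz1 (adjusted p = 0.15), -19.9 points for Rnf17 (adjusted p = 0.088), -14.1 points for Mael (adjusted p = 0.13) and -9.57 points for Tdrd9 (adjusted p = 1.00). Neither call held without DMSO replicate 1 (adjusted p = 0.12 for Ddx4 and 0.13 for Tdrd1) or without DMSO replicate 2 (0.13 and 0.16), nor with limma on the levels (adjusted p = 0.25 and 0.078), nor with the spread prior first planned, from all windows (0.076 and 0.085). Without 10 µM replicate 2, Mael passed with a change of -25.6 points (adjusted p = 0.027), and without 10 µM replicate 1 the adjusted p of Tdrd1 was 0.086.

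The doses were then compared with each other. From 0.2 to 2 µM 1 of the 6 windows fell further, that of Ddx4, with a change of -25.5 points (adjusted p = 0.021). In this comparison 0.526% of all windows fell and 5.24% rose, and of the start windows at 80% or above 5.58% fell and 9.16% rose. The change was -18.6 points for Mael (adjusted p = 0.11) and -12.6 points for Tdrd1 (adjusted p = 0.23), with no overlap between the libraries of the 2 doses in either. Tdrd9 was 27.7 points higher at 2 µM (adjusted p = 0.11), Asz1 6.81 points higher (adjusted p = 0.81) and Rnf17 1.39 points higher (adjusted p = 1.00). The call for Ddx4 did not hold without 0.2 µM replicate 1 (adjusted p = 0.17), 0.2 µM replicate 2 (0.16) or 2 µM replicate 1 (0.071), nor with limma on the levels (0.13) or the planned prior from all windows (0.12). Tdrd9 passed without 2 µM replicate 2, at 37.0 points (adjusted p = 0.049), and with unscaled reads, at 27.7 points (adjusted p = 0.042).

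From 2 to 10 µM Mael rose by 29.0 points (adjusted p = 0.017) and Ddx4 by 27.4 points (adjusted p = 0.014), so 2 of the 6 windows rose. Of all windows 5.62% rose and 0.0216% fell, and of the start windows at 80% or above 21.2% rose. Rnf17 was 22.0 points higher (adjusted p = 0.11), Tdrd1 19.6 points (adjusted p = 0.057), Tdrd9 19.5 points (adjusted p = 0.28) and Asz1 12.8 points (adjusted p = 0.49). Without 10 µM replicate 2 the adjusted p was 0.28 for Mael, whose difference was then 17.5 points, and 0.071 for Ddx4. With limma on the levels it was 0.087 for Mael and 0.098 for Ddx4, and with the planned prior from all windows it was 0.12 for both. Without 10 µM replicate 1 it was 0.10 for Ddx4, and without 2 µM replicate 1 Tdrd1 passed at 23.8 points (adjusted p = 0.039).

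From 0.2 to 10 µM 1 of the 6 windows rose, Tdrd9 by 47.2 points (adjusted p = 0.0047), where 25.6% of all windows rose and 0.0173% fell. Of the start windows at 80% or above 46.4% rose and 0.0715% fell. Rnf17 was 23.3 points higher (adjusted p = 0.057), Asz1 19.6 points (adjusted p = 0.13), Mael 10.5 points (adjusted p = 0.30), Tdrd1 6.97 points (adjusted p = 0.56) and Ddx4 1.97 points (adjusted p = 0.92). Tdrd9 did not pass without 0.2 µM replicate 2 (adjusted p = 0.053) or without 10 µM replicate 1 (31.8 points, adjusted p = 0.21), and without 10 µM replicate 1 Mael rose by 22.0 points (adjusted p = 0.030). Rnf17 passed without 2 µM replicate 1 (adjusted p = 0.046) and without 2 µM replicate 2 (adjusted p = 0.048).

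The step from 0.2 to 2 µM was set beside the number of CpGs read in the window, as a description. By group mean Ddx4 and Mael (53 CpGs each) and Tdrd1 (37) were lower at 2 µM, and Asz1 and Rnf17 (24 each) and Tdrd9 (13) were higher. Of the 6 steps that of Ddx4 passed. The sign turned for Asz1 without 0.2 µM replicate 2 (-1.71 points), for Rnf17 without 0.2 µM replicate 2 (-4.56 points), without 2 µM replicate 2 (-0.355 points) and with unweighted means (-4.16 points), and for Tdrd1 at 250 bp (9.33 points). The step was also read in the 1398 start windows at 80% or above in pooled DMSO. Of the 540 with 35 or more CpGs, 74.4% were lower at 2 µM than at 0.2 µM, with a median step of -7.42 points. Of the 238 with 20 to 34 CpGs 18.1% were lower, with a median step of 12.3 points, and of the 330 with 10 to 19 CpGs 13.3% were lower, with a median step of 19.6 points. Of the 290 with fewer than 10 CpGs 12.8% were lower, with a median step of 15.0 points. Ddx4, Mael and Tdrd1 stepped down further than the median of the class with 35 or more CpGs. Asz1 and Rnf17 stepped up less than the median of the class with 20 to 34 CpGs. Tdrd9 stepped up more than the median of the class with 10 to 19. The spread within a class was not set beside these steps. Tdrd9, with the fewest CpGs of the 6, also had the fewest calls, and the part of read depth in this pattern was not tested.

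**Figure D2:**
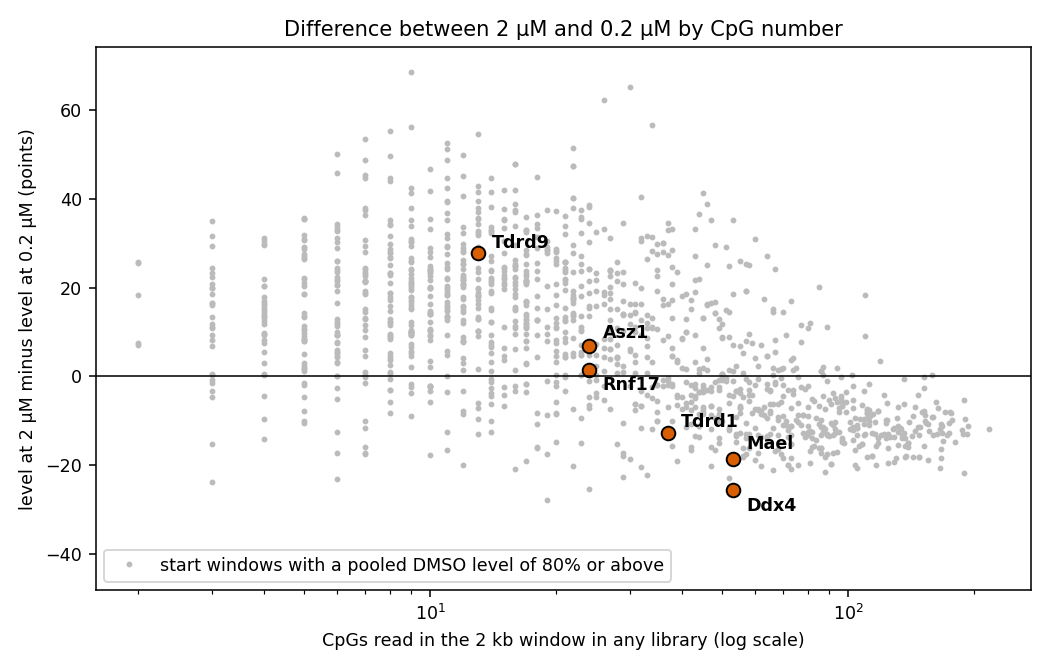
Level at 2 µM minus level at 0.2 µM (y axis, percentage points) against the CpGs read in the window (x axis, log scale), for start windows at 80% or above in pooled DMSO (grey) and the 6 piRNA gene windows (orange). Ddx4 lies at -25.5 points, the 1 step of the 6 that passed, and Tdrd9, at 13 CpGs, lies at 27.7 points.

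Single CpGs within a window were then read with the libraries of a group pooled, where each group had at least 5 reads. CpGs on one fragment share reads, so they are a description. Positions are counted from the promoter table's start. In Ddx4 29 CpGs qualified, at positions from -193 to 29 bp. Below DMSO were 22 of these with 0.2 µM, 29 with 2 µM and 26 with 10 µM, and 27 were lower at 2 µM than at 0.2 µM. In Mael all 19 qualifying CpGs were below DMSO at 0.2 and at 2 µM, and 16 were lower at 2 than at 0.2 µM. Tdrd1 had 14 of 19 lower at 2 than at 0.2 µM, Asz1 5 of 17, Rnf17 5 of 15 and Tdrd9 0 of 5.

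By the gene-table start, the part of Ddx4 read in every library lies inside the gene. In bins of 200 bp counted from the promoter table's start, Ddx4 was covered mainly just before that start. The 32 CpGs in the 200 bp before it were 97.3% methylated with DMSO, 74.0% with 0.2 µM, 48.0% with 2 µM and 78.1% with 10 µM, from 186 to 637 calls per group. In Mael the 0.2 µM level was 79.5% in the 200 bp before the start, 61.5% in the 200 bp after it and 54.0% in the next 200 bp. The 10 µM level ran the other way there, at 68.9%, 80.4% and 93.9%, the last from 49 calls. By library these were 61.4%, 69.6% and 100% in 10 µM replicate 1 and 84.6%, 91.9% and 92.7% in replicate 2, with 8 and 41 calls in the last bin. Both 0.2 µM libraries ran downward, at 83.0%, 69.2% and 63.9% in replicate 1 and 78.0%, 54.2% and 40.7% in replicate 2. In Asz1 the pooled level of the 200 bp before the start stood above that of the 200 bp after it in every group, at 93.0% and 75.9% in DMSO, 46.3% and 35.9% with 0.2 µM, 52.7% and 44.5% with 2 µM, and 69.5% and 56.8% with 10 µM. By library this order turned in 0.2 µM replicate 2 (33.98% and 36.3%) and in 2 µM replicate 2 (41.98% and 65.8%).

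Tdrd1 was read mainly inside the gene. In the 200 bp after its start, with 39 DMSO calls, the levels were 92.3% with DMSO, 57.1% with 0.2 µM, 67.4% with 2 µM and 74.4% with 10 µM. In the next 200 bp, with 240 DMSO calls, they were 86.3%, 58.6%, 41.2% and 59.9%. Of these 2 bins Tdrd1 was lower at 2 µM than at 0.2 µM in the second. In a window of 250 bp either side of its gene-table start, its step from 0.2 to 2 µM was 9.33 points.

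**Figure D3:**
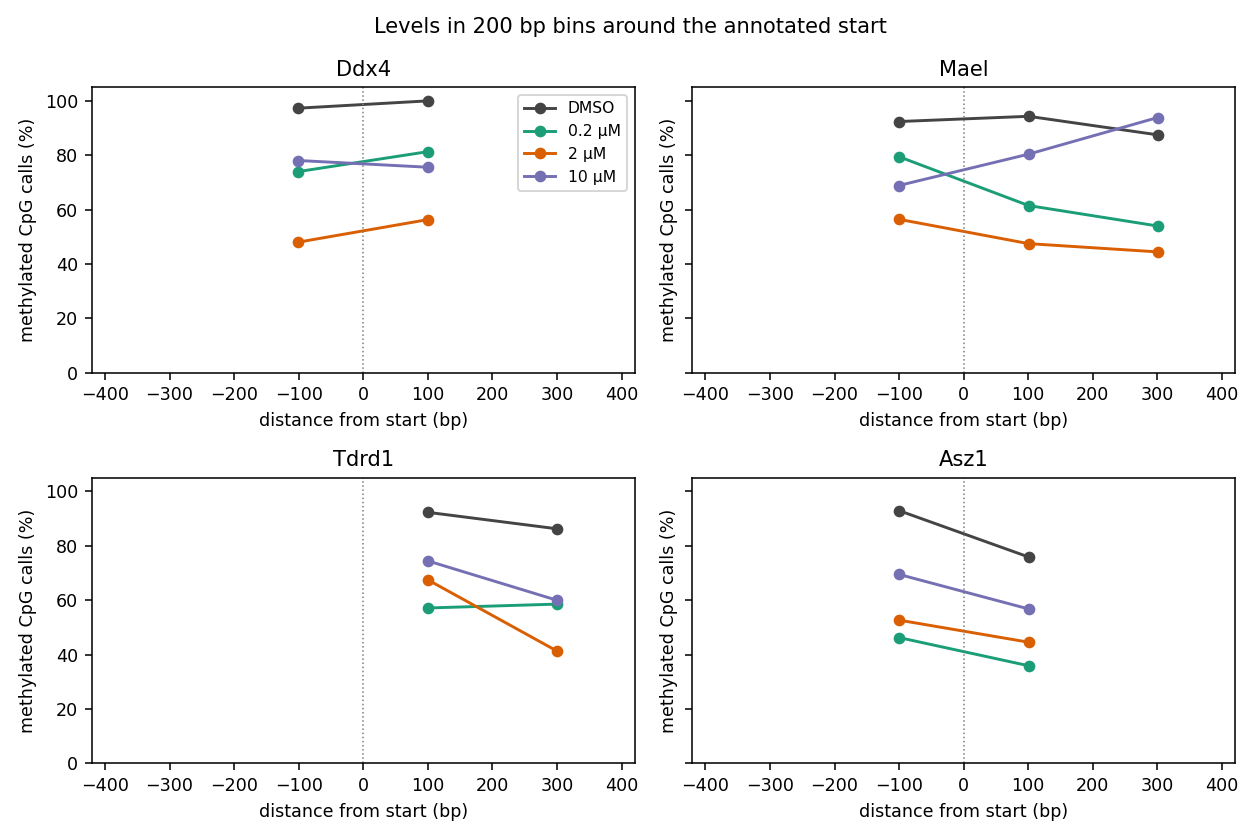
Pooled level of each group (y axis, percent of calls methylated) in bins of 200 bp by distance from the promoter table's start (x axis, bp), for Ddx4, Mael, Tdrd1 and Asz1. In Mael the 0.2 µM level is 79.5% before the start and 54.0% between 201 and 400 bp after it, while the 10 µM level is 68.9% and 93.9%.

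A few motif CpGs were read. The CpG of the Ddx4 E-box, at position -27 from the promoter table's start, had 5 of 6 reads methylated with DMSO, 9 of 11 with 0.2 µM, 14 of 30 with 2 µM and 8 of 13 with 10 µM. The exact 95% intervals, which cover counting error only, overlapped, from 28.3% to 65.7% at 2 µM and from 48.2% to 97.7% at 0.2 µM. The CpG of the Mael TCCCGCC 13 bp after the start had 12 of 13 reads methylated with DMSO, 18 of 29 with 0.2 µM, 26 of 45 with 2 µM and 16 of 24 with 10 µM. The CpG of the Ddx4 TCCCGCC, at position -135, had 5 of 5 reads methylated with DMSO, 5 of 6 with 0.2 µM, 3 of 5 with 2 µM and 10 of 11 with 10 µM. That of the other Mael TCCCGCC, at -140, had 3 of 4, 1 of 3, 1 of 2 and 0 of 1. The Ddx4 E-box CpG was read in 8 libraries. The E-box CpGs of the other genes were not read in any library.

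Other genes of the pathway were set beside these, from a list of 20 genes, of which 7 had a used start window. In DMSO these ranged from 1.12% ± 0.861 at Exd1, an RNA-binding partner in piRNA production, to 96.3% ± 1.85 at Btbd18, a regulator of piRNA precursor transcription (SD, n = 2). Against DMSO 5 of the 7 fell with 0.2 µM, 6 with 2 µM and 0 with 10 µM, where 40.4%, 29.6% and 6.31% of all windows fell, and 97.7%, 92.7% and 34.8% of the start windows at 80% or above. At 10 µM 3 of the 7 were lower at an unadjusted p under 0.05 in this fit, and limma also called 0, both on the window levels and on unweighted means over CpGs. The median changes of the 7 were -31.9, -29.9 and -16.4 points at the 3 doses, against -0.566, -0.236 and -0.139 points over all start windows, most of which are unmethylated, and -46.4, -36.8 and -19.7 points over the start windows at 80% or above. Btbd18 changed by -40.7 points at 0.2 µM (adjusted p = 0.00020) and by -42.4 points at 2 µM (adjusted p = 9.1e-05). Henmt1, which methylates the 3' ends of piRNAs, stood at 96.0% ± 0.776 with DMSO, 64.1% ± 0.794 with 0.2 µM, 75.3% ± 9.41 with 2 µM and 75.6% ± 6.64 with 10 µM (SD, n = 2, 2, 3 and 2). Tdrkh, a tudor protein on mitochondria, stood at 71.5% ± 8.20, 40.4% ± 2.91, 40.7% ± 14.6 and 54.6% ± 2.47. Exd1 stayed between 0.174% and 1.39% in all groups. Another 4 genes of the list had a used end without strand. Pnldc1, which trims piRNA ends, changed by -63.2, -51.6 and -36.1 points at the 3 doses (adjusted p = 4.1e-07, 9.5e-07 and 0.00066). Tex15, a partner of a PIWI protein in transposon methylation, changed by -35.1 points at 0.2 µM (adjusted p = 0.00013), -35.8 points at 2 µM (adjusted p = 7.8e-05) and -14.1 points at 10 µM (adjusted p = 0.18). Spocd1 and Mybl1 stood at 0.703% and 0.640% in DMSO and passed at no dose. These 4 were named after their values were seen.

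Somatic relatives of the pathway genes had low levels at their starts. Of 10 relatives, 8 had a used start window, at 0.462% to 17.9% in DMSO. The lowest were Tdrd3 at 0.462% ± 0.021 and Snd1 at 0.528% ± 0.143, both broadly expressed tudor proteins. The highest were Ddx3x, an X-linked helicase related to Ddx4, at 17.9% ± 1.99, and Ago4, an Argonaute, at 9.32% ± 1.15 (SD, n = 2). Of the 8, 1 fell at 0.2 µM (Ago4, with a change of -4.99 points, adjusted p = 0.0095) and 0 at 2 or 10 µM, where 0 of 8 were also under an unadjusted p of 0.05. Limma on the levels called 0 at all 3 doses, and 1 of 8 was lower at an unadjusted p under 0.05 at 2 µM. Limma on unweighted means over CpGs called 2 of 8 as lower with 0.2 µM, 1 with 2 µM and 0 with 10 µM. The far end of Mov10, its 1 used window away from the start, stood at 85.2% ± 9.63 in DMSO and changed by -67.5 points at 0.2 µM (adjusted p = 2.1e-05), -36.3 points at 2 µM (adjusted p = 0.0031) and -7.50 points at 10 µM (adjusted p = 0.86).

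**Figure D4:**
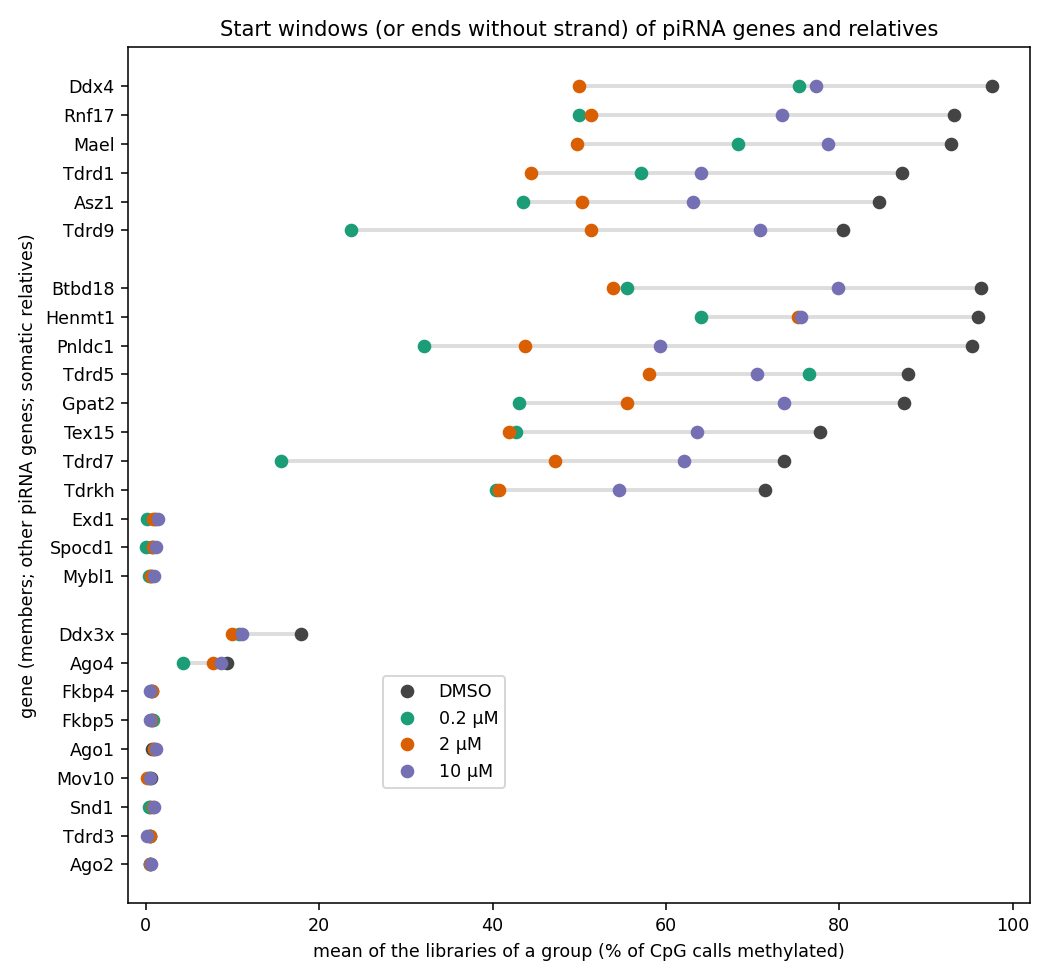
Group means (points, percent of calls methylated, x axis) of used start windows, or of the used end where the strand is not given, 1 gene a row: the 6 piRNA genes (top), other piRNA genes (middle) and somatic relatives (bottom). The top 6 lie at 80.5% or above in DMSO, and the relatives at 17.9% or below. The far end of Mov10 is not plotted.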

How the data were processed

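Methylation at single CpGs was read from 9 deposited tables, 1 per library, with no header. A line gives a CpG, a text of methylated over total read counts, and a score. In each line the deposited score equals the level scaled to 1000 without decimals, and only the counts were used. Aligner and caller: not given in the sources used here. The build is mm10 per the submitters' processing notes, and all 254625 positions inside RefSeq promoter sequences (GRCm38.p6) sat on a CG. The labels give 50 ng input and 11 PCR cycles. PCR copies were not separated. Per library, 1 or 2 lines of unusual width and 18 to 68 repeated lines were left out.

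Calls (1 read at 1 CpG) were summed within 1000 bp of each end of the RefSeq gene table, and strand came from the RefSeq promoter table. A level is methylated over all calls, and a change is the difference of the group means in percentage points. A binomial quasi-likelihood model with 1 level per group was fitted to all 9 libraries over 23174 windows. Calls were scaled for their correlation within a window (0.0338 to 0.00272 over 5 coverage classes). The dispersion was moderated with limma 3.58.1 (R 4.3.3), not under 1, and p-values were adjusted by the Benjamini-Hochberg method over all windows. The plan took the spread prior from all windows. In simulated data that form called 1 of 200 changed windows at 10 µM against DMSO. A prior from windows at 10 to 90% (prior df 16.9) called 75, and this second form was used instead. The simulation changed 200 of 23174 windows per dose by a log odds of 1.5. In the data 1463 windows fell at 10 µM by the form used, so the simulation cannot give the power of either form here. The planned form is given as an alternative, under which no call of the 10 genes at 10 µM against DMSO, at 2 against 0.2 µM or at 10 against 2 µM passed. Python 3.11.15, numpy 2.4.6, pandas 2.3.3 and scipy 1.17.1 were used.

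The genes, lists and tests were chosen with earlier results of these data known. Named genes are the 10 genes, and the start windows with the 2 highest and 2 lowest DMSO levels of each other list. The alternatives were 20 or 5 calls, 500 or 250 bp, unweighted CpG means, limma on levels, unscaled reads, leaving out the 1% of CpGs with the most reads, a replicate block, each library left out, the planned prior from all windows, and, added after the data were seen, the promoter table's starts.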

Additional observations from a re-analysis of the deposited data

How the results depend on the processing

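Of the calls against DMSO, those for Tdrd1, Asz1, Rnf17 and Tdrd9 at 0.2 µM and for Ddx4, Mael, Tdrd1 and Rnf17 at 2 µM passed in every alternative that kept their window (highest adjusted p 0.0485, for Tdrd1 at 2 µM). Tdrd9 had no window with 20 calls or at 250 bp. None of the calls at 10 µM or between doses passed in every alternative. All comparisons rest on few libraries, 2 or 3 a group.

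The number of start windows called at 0.2 µM against DMSO, 5, became 3 at 250 bp (of 4 windows), with unweighted CpG means and with limma on levels. At 10 µM against DMSO, 2 became 0 at 250 bp, with unweighted means, limma on levels and the planned prior from all windows, and ranged from 0 to 3 with each library left out. From 0.2 to 2 µM, the 1 lower window became 0 in those same settings and ranged from 0 to 1 with a library left out. Besides it, Tdrd9 was called higher without 2 µM replicate 2 and with unscaled reads, and Fkbp6 with 5 calls (45.2 points, adjusted p = 0.0074). From 2 to 10 µM, 2 became 1 at 500 bp and 0 at 250 bp, with unweighted means, limma on levels and the planned prior from all windows, became 3 with unscaled reads (Tdrd1, adjusted p = 0.033), and ranged from 0 to 3 with a library left out. From 0.2 to 10 µM, 1 became 0 with 20 calls, at 250 bp and with unweighted means, became 2 at the promoter table's starts, where Fkbp6 joined, and ranged from 0 to 1 with a library left out.

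The Rnf17 window, not called in the fits of 10 µM, became 1 call against DMSO with 5 calls, 1 against 2 µM with unscaled reads, and 1 against 0.2 µM with 20 calls, 5 reads, unweighted means, limma on levels and unscaled reads (0 to 1 with a library left out). Signs turned in differences that had not passed. Tdrd9 at 10 µM against DMSO ranged from -24.9 to 5.75 points with a library left out (0.881 without DMSO replicate 2, 5.75 without 10 µM replicate 2). From 0.2 to 2 µM, Asz1 ranged from -1.71 (without 0.2 µM replicate 2) to 15.3, Tdrd1 was 9.33 at 250 bp, and Rnf17 was -4.16 with unweighted means and ranged from -4.56 (without 0.2 µM replicate 2; -0.355 without 2 µM replicate 2) to 7.34. Mael from 0.2 to 10 µM ranged from -1.05 (without 10 µM replicate 2) to 22.0. Apart from windows that a setting drops or adds, the cause of these shifts was not tested.

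Over all windows, the calls moved by more than 1.5 times. Windows lower against DMSO numbered 9355 at 0.2 µM (2959 to 11533 over 20 alternatives), 6852 at 2 µM (2345 to 7997) and 1463 at 10 µM (61 to 1636). From 0.2 to 2 µM, 122 were lower (0 to 215) and 1215 higher (0 to 2466). Windows higher at 10 µM numbered 1302 against 2 µM (4 to 1734) and 5924 against 0.2 µM (944 to 7298). The replicate numbers do not pair the libraries: same-numbered deviations had r between -0.0099 and 0.020 over 11143 windows. In the fit with a replicate block (replicates 1 and 2 of each group), the start windows called numbered 5, 4, 2, 1, 2 and 1 in the 6 comparisons, as without it. Depth limits Tdrd9 most, with 11 calls in DMSO replicate 2.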
